A study of Mus musculus with 6 samples.

Results

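The respiratory chain genes of hematopoietic stem cells were taken as every gene of the table whose name starts with mt-, Nduf, Uqcr, Atp5 or Cox4 to Cox8, together with Sdha, Sdhb, Sdhc and Sdhd, with processed copies (-ps in the name) left out. Such a name was borne by 105 of the 19846 genes listed, and the 98 that averaged at least 10 normalized counts over the 6 libraries were described. They comprise 11 genes of the mitochondrial genome and 87 nuclear genes. RNA had been measured in 3 WT and 3 CD74-/- libraries, each of 1000 HSCs (CD34-/LSK) sorted from bone marrow of untreated C57BL/6 mice aged 6 to 8 weeks, and the labels give 3 mice of each genotype without saying that each library came from a single mouse. CD74-/- mice lack the invariant chain CD74 in all cells, so that cells of other kinds in these animals carry the same deletion. The comparison asks whether RNA of the chain differs between the genotypes, by complex and by genome of origin.

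The chain lies in the inner mitochondrial membrane. Complex I (NADH dehydrogenase) and complex II (succinate dehydrogenase, which is also an enzyme of the tricarboxylic acid cycle) pass electrons to ubiquinone, complex III passes them to cytochrome c and complex IV to oxygen, and ATP synthase, complex V, uses the proton gradient. A small core of subunits is transcribed inside the mitochondrion as long polycistronic RNAs that are cut at the tRNAs, the rest is encoded in the nucleus, and complex II is wholly nuclear. HSCs are known for a low use of respiration compared with the progenitors they give rise to.

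Cd74 stood at 3287, 2459 and 3107 normalized counts in libraries WT 1, 2 and 3, respectively, and at 46.0, 72.0 and 72.8 in CD74-/- 1, 2 and 3, so each library carried the genotype of its label. A normalized count is the reads of a gene divided by the library's size factor, and 14390534 to 16198678 reads lay in genes per library. All 14 HSC markers looked at (Kit, Procr, Mecom and others) were detected, with sums of 46733 to 61403 normalized counts in WT and 37084 to 63850 in CD74-/- libraries, and 12 of the 14 had a negative log2 fold change (median -0.26, and -0.78 without WT 1 and CD74-/- 3). Markers of other cells moved with the genotype: 10 of 11 neutrophil, 9 of 11 B cell, 6 of 9 erythroid and 5 of 10 monocyte and macrophage genes were lower in CD74-/- at an unadjusted limma p under 0.05, against 4.6% of all genes tested. limma called 2 of the erythroid genes at an adjusted p under 0.05, against 0.0873% of all genes. Of 4 T cell genes tested, 0 were lower at that p and 2 had a negative log2 fold change. Neutrophil genes held 6.26%, 1.09% and 1.59% of the counts in WT 1, 2 and 3 and 0.914%, 0.196% and 0.356% in CD74-/- 1, 2 and 3. Summed B cell, erythroid and monocyte markers were 3301 to 11050, 38997 to 58470 and 29564 to 51038 in WT against 1335 to 3346, 25158 to 39182 and 9529 to 39488 in CD74-/- libraries. The LSK gate is meant to leave out cells that carry lineage markers. The part of these genes in the results below was not tested. In such bulk samples, fewer cells of a type and less RNA per cell cannot be told apart.

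In parts of this set, 1 library of each genotype stood apart from its replicates. WT 1 was the highest of all 6 libraries for 51 of the 98 genes (52.0%, against 21.8% of all genes tested), mostly nuclear genes with short coding sequences. CD74-/- 3 lay below both other CD74-/- libraries in 17 of the 20 nuclear subunits with a coding length of at least 600 bases (85.0%, against 36.6% of all genes), while CD74-/- 1 and 2 lay above all other libraries in 15 of these 20 (75.0%, against 16.3%). In the 57 shorter subunits CD74-/- 3 was the lowest of its genotype in 17 (29.8%) and the highest in 26 (45.6%, against 40.3% of all genes). Over all 98 genes it was the lowest in 44 (44.9%) and the highest in 37 (37.8%), so it did not stand apart in the set as a whole. Results are also given without WT 1 and CD74-/- 3. That comparison of 2 against 2 was chosen from the values of these genes after the data had been seen.

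No gene of the chain was called. limma, fitted over all 14892 genes that averaged 10 normalized counts or more, called 0 of the 98 at a Benjamini-Hochberg adjusted p under 0.05, against 13 of all genes (0.0873%). edgeR, DESeq2 and limma-voom on the recovered reads also called 0, against 12, 148 and 6 of all genes (0.083%, 0.756% and 0.0415%). At an unadjusted p under 0.05, limma found 1 gene higher (Ndufaf4) and 0 lower, against 3.14% and 4.6% of all genes. edgeR found 2 higher (mt-Cytb and Ndufaf4) and 0 lower, against 3.62% and 3.47%, and limma-voom 3 higher (these and mt-Nd5) and 0 lower, against 3.37% and 3.67%. DESeq2 found 5 higher (Ndufaf4, Ndufv1, Sdhc, Uqcrc1 and Uqcrc2) and 0 lower, against 3.66% and 4.69%. The 3 CD74-/- values lay above the 3 WT values for 4 genes (mt-Nd5, mt-Cytb, Ndufaf4 and Ndufa12), which is 4 of 98 against 5.35% of all genes, and below them for 0, against 7.47%. After scaling to the sum of nuclear counts those numbers were 2 and 5, against 4.12% and 8.96% of all genes. The log2 fold change, CD74-/- minus WT on log2(normalized count + 1), had a median of -0.01 over the 98 genes and of -0.03 over all genes tested, and 47 values were positive and 51 negative. Without WT 1 and CD74-/- 3, limma still called 0 (lowest adjusted p = 0.13), against 0.0672% of all genes. At an unadjusted p under 0.05, 19 genes were then higher (against 10.5% of all genes) and 4 lower, namely mt-Rnr1, mt-Rnr2, mt-Nd4 and Sdha (against 7.24%). Both libraries were left out because of their values in these same genes, so these counts cannot show an excess over all genes.

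**Figure D1:**
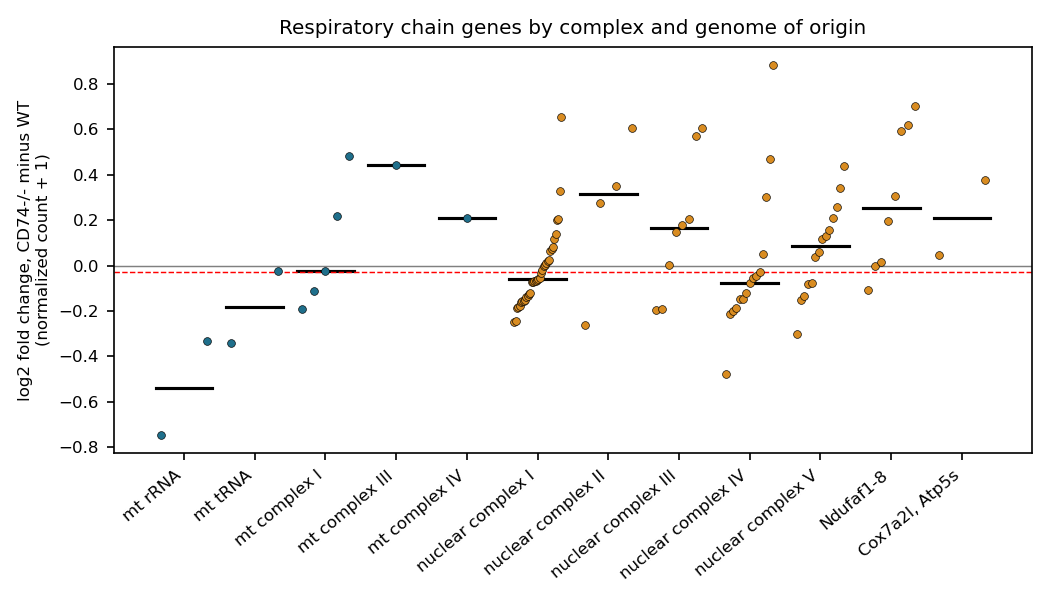
Log2 fold change of each of the 98 genes (vertical axis, CD74-/- minus WT, on normalized count + 1) by genome and complex (horizontal axis), blue for genes of the mitochondrial genome and orange for nuclear genes. Black bars are group medians, the grey line is 0 and the red dashed line is the median of all genes tested (-0.03). Nuclear complexes II and III and the Ndufaf genes have medians of 0.32, 0.17 and 0.25, and those of complexes I and IV lie at -0.06 and -0.08.

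The mitochondrial genome had 7 protein-coding genes above the minimum: mt-Nd1, mt-Nd2, mt-Nd4, mt-Nd5 and mt-Nd6 of complex I, mt-Cytb of complex III and mt-Co1 of complex IV. mt-Co2, mt-Co3, mt-Atp6, mt-Atp8 and mt-Nd4l are not analysed here. Per kilobase of transcript, mt-Cytb was the most abundant of the genes analysed here with a mean of 110672 normalized counts, and mt-Nd5 was the lowest of the 7 with 14907. The 77 nuclear subunits had a median of 6435 per kilobase.

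mt-Cytb, the cytochrome b core of complex III (chrM:14145-15288, GRCm38), stood at 82955, 118162 and 122649 normalized counts in the WT libraries and at 150408, 156884 and 128592 in CD74-/- libraries. The groups did not overlap, and the mean was 1.35 times WT (107922 ± 21738 and 145295 ± 14823, SD, n = 3). The log2 fold change was 0.45 (SE 0.21), with an adjusted p of 0.65 from limma. mt-Nd5, a proton-pumping subunit of complex I (chrM:11742-13565), read 15183, 28318 and 25911 in WT and 30988, 33956 and 28788 in CD74-/- libraries. Its groups did not overlap either, with WT 1 far below the rest, and the log2 fold change was 0.48 (SE 0.24, limma adjusted p = 0.67). The exact permutation test gave p = 0.1 for both genes, the smallest p that 3 against 3 libraries allow. Without WT 1 and CD74-/- 3 the log2 fold changes were 0.35 and 0.26.

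The other mitochondrial genes overlapped between the groups. mt-Co1, the catalytic subunit of complex IV, stood at 48974, 76257 and 70537 in WT and 81611, 81503 and 61257 in CD74-/- libraries (log2 fold change 0.21, SE 0.22). mt-Nd4 stood at 40439, 35540 and 35161 in WT and 29224, 28181 and 41066 in CD74-/- libraries (-0.19, SE 0.20). WT 1 and CD74-/- 3 were the lowest of all 6 libraries in mt-Co1 and the highest in mt-Nd4. Of the protein-coding genes mt-Nd1 differed least, at 63586, 57271 and 59455 in WT and 57227, 61704 and 58268 in CD74-/- libraries (-0.02, SE 0.16, with a 95% interval of -0.39 to 0.34). mt-Nd2 and mt-Nd6 had log2 fold changes of -0.11 and 0.22, and CD74-/- 3 was the highest library in both. mt-Nd6 is encoded on the other strand and overlaps the end of mt-Nd5, and reads in the overlap cannot be assigned. The libraries do not keep strand, so over the whole of mt-Nd6 its RNA cannot be told from RNA of the opposite strand. For mt-Nd4 and mt-Co1, 62.2% and 51.1% of the 50-base words of the transcript also occur in other annotated genes, nuclear copies among them, so their counts are uncertain, and mt-Nd4 overlaps mt-Nd4l.

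Both mitochondrial rRNAs were highest in WT 1 and lowest in CD74-/- 1 and 2. mt-Rnr1 (12S) stood at 79337, 26244 and 28614 in WT and 17552, 17810 and 40479 in CD74-/- libraries (log2 fold change -0.75, SE 0.44, limma adjusted p = 0.70). mt-Rnr2 (16S) stood at 187091, 104923 and 118625 in WT and 82092, 91826 and 154445 in CD74-/- libraries (-0.33, SE 0.29). The groups overlapped in both through CD74-/- 3. Without WT 1 and CD74-/- 3 the values were -0.63 and -0.36. rRNA reads per read of the protein-coding mitochondrial genes analysed here ran from 0.260 in CD74-/- 1 to 0.925 in WT 1.

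As a share of all normalized counts, the protein-coding mitochondrial genes analysed here took 1.85%, 2.46% and 2.41% in WT and 2.42%, 2.47% and 2.52% in CD74-/- libraries. That sum covers the 7 above the minimum and mt-Nd3, and leaves out mt-Co2, mt-Co3, mt-Atp6, mt-Atp8 and mt-Nd4l. WT 1 was the only library that stood off. The difference of the means was 0.228 percentage points, and without WT 1 and CD74-/- 3 it was 0.00864. Nuclear subunits took 3.42%, 2.82% and 2.83% in WT and 2.97%, 2.76% and 2.94% in CD74-/- libraries, so the groups overlapped there too. Neutrophil genes, at 6.26% of the counts of WT 1, were also highest in that library. So were the B cell (0.071%), T cell, erythroid (0.376%) and monocyte and macrophage (0.328%) markers. Any link of these markers to the shares was not tested.

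**Figure D2:**
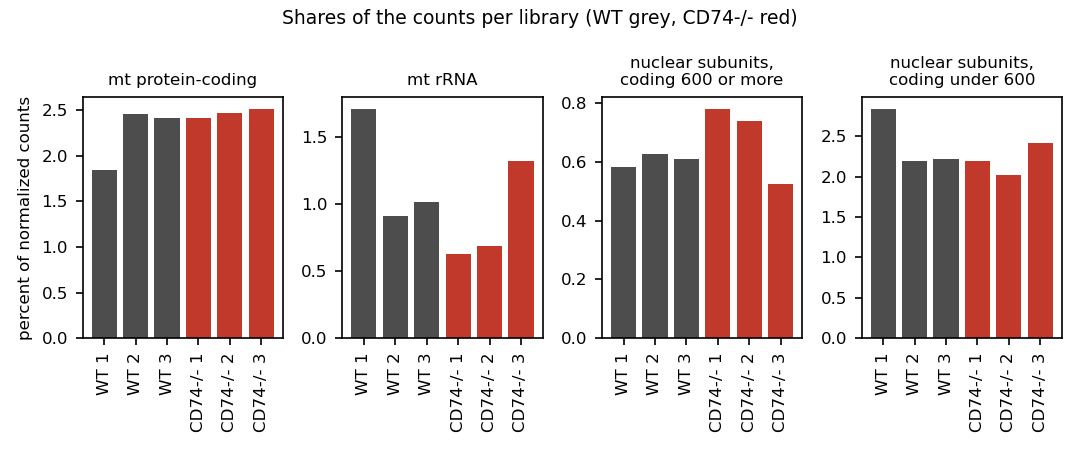
Percent of all normalized counts per library (vertical axis, bars from 0) in the mitochondrial protein-coding genes analysed here, mitochondrial rRNAs, and nuclear subunits with coding lengths of at least and under 600 bases. WT 1 is low in the first panel at 1.85% and high in the second at 1.71%, and CD74-/- 3 is the lowest in the third at 0.523%.

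A further 7 genes with such a name fell under the minimum, namely mt-Nd3, mt-Ta, mt-Ti, mt-Tq, mt-Tt, Cox7b2 and Atp5g2. Atp5g2 was the nearest with a mean of 8.41, and the nearest above the minimum were the tRNA genes mt-Tc (10.7) and mt-Tl1 (13.7), with log2 fold changes of -0.34 (SE 1.08) and -0.02 (SE 1.03). The tRNA of glutamine, mt-Tq, did not overlap between the groups (6.42, 8.06 and 6.62 in WT, and 2.93, 6.08 and 6.15 in CD74-/- libraries), on 3 to 9 reads per library. WT 1, CD74-/- 2 and CD74-/- 3 each had 6 reads of mt-Tq, so only the size factors parted the groups. mt-Nd3, a small subunit of complex I (chrM:9459-9806), had 4, 6 and 11 reads in WT (normalized 4.28, 5.38 and 10.4) and 0 reads in each CD74-/- library, where 0 reads allow up to 2.93, 3.04 and 3.07 normalized counts (3 reads, counting error only). Gm28438, an unprocessed nuclear copy of mt-Nd3 (chr1:24612775-24613119, minus strand), was on the other side, with 0 reads in each WT library and 8, 8 and 11 reads in CD74-/- libraries (normalized 7.83, 8.11 and 11.3). For each gene the exact permutation test gave the smallest possible p of 0.1. The annotated transcripts of the pair (GENCODE vM21, GRCm38) share 98% of the 50-base words of mt-Nd3 and differ at 1 of 345 compared bases. The first 40 bases of each are shown, 5′ to 3′, because they hold that base, printed in capitals.
mt-Nd3: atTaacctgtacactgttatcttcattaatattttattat
Gm28438: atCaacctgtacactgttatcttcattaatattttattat
The difference is T3C, counted from the first base of each transcript, with the base of mt-Nd3 given first. It lies at position 9461 of chrM and at 24613117 of chromosome 1. Both rest on few reads and on counts split between near-identical copies. A read of one copy can be counted for the other where they do not differ or where a mouse carries the other base, so a value of 0 does not show that the RNA was absent, and the reads that could tell were not used here.

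Nuclear complex I had 36 subunits, of which 13 were higher and 23 lower in CD74-/- by sign, with a median of -0.06, or 0.10 without WT 1 and CD74-/- 3 and 0.09 without WT 1 alone. Values ran from -0.25 in Ndufa1 to 0.65 in Ndufv1. Ndufv1, the flavoprotein that takes electrons from NADH (chr19:4007384-4012806), stood at 875, 697 and 809 in WT and 1807, 1524 and 699 in CD74-/- libraries. CD74-/- 1 and 2 lay above every WT library and CD74-/- 3 among them, and limma gave an adjusted p of 0.69 (SE 0.35). In Ndufa9 and Ndufa10, accessory subunits, CD74-/- 1 and 2 were likewise highest and CD74-/- 3 was the lowest of all 6 libraries, with Ndufa9 at 1931, 2374 and 2554 in WT and 3809, 3764 and 1252 in CD74-/- libraries. Ndufa1, a small membrane subunit encoded on the X chromosome, was highest in WT 1 (6400, 3506 and 3583 in WT, 3366, 3135 and 4553 in CD74-/- libraries). Of the 26 subunits with a coding length under 600 bases, 23 were highest in WT 1. Ndufa12 did not overlap between the groups but differed by only 1.08 times (1991 to 2220.51 and 2220.53 to 2383 normalized counts, log2 fold change 0.12, SE 0.20).

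Ndufaf4, an assembly factor of complex I, was the single gene of the 98 with an unadjusted p under 0.05 in limma (adjusted p = 0.58), and its exact permutation test gave the smallest possible p of 0.1. It stood at 1085, 1457 and 1461 normalized counts in the WT libraries and at 2123, 2139 and 1852 in CD74-/- libraries. All 3 CD74-/- libraries lay above all WT libraries, and the mean was 1.53 times WT (1334 ± 216 and 2038 ± 162, SD, n = 3), with a log2 fold change of 0.62 (SE 0.23). Over the alternatives its log2 fold change ran from 0.48 to 0.69 and its adjusted p from 0.145 to 0.95. The 8 factors Ndufaf1 to Ndufaf8 had a median of 0.25 with 6 positive values, and 0.44 without WT 1 and CD74-/- 3. Ndufaf6 had the highest value of the 8 (0.70), and Ndufaf1, which acts in building the membrane arm, was highest in CD74-/- 1 and 2, with CD74-/- 3 within the WT range (676, 919 and 1068 in WT, 1641, 1809 and 773 in CD74-/- libraries).

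In complex II the CD74-/- libraries parted. Its 4 genes had a median log2 fold change of 0.32, of 0.63 without WT 1 and CD74-/- 3, and of 0.68 without CD74-/- 3 alone. Sdhb, the iron-sulfur subunit, stood at 6525, 6266 and 6396 in WT and at 9786, 9589 and 4963 in CD74-/- libraries. Sdhc, a membrane anchor that holds ubiquinone, stood at 1891, 2152 and 2166 in WT and at 4068, 4634 and 1655 in CD74-/- libraries. Sdhd, the other anchor, stood at 3551, 4512 and 4273 in WT and at 7004, 6835 and 2978 in CD74-/- libraries. In all 3 genes CD74-/- 1 and 2 lay above every WT library and CD74-/- 3 below every WT library. Sdha, the flavoprotein that oxidizes succinate, had the opposite order: 3543, 3634 and 3533 in WT against 2605, 2295 and 4398 in CD74-/- libraries. The log2 fold changes of Sdha, Sdhb, Sdhc and Sdhd were -0.26 (SE 0.26), 0.28 (SE 0.27), 0.61 (SE 0.35) and 0.35 (SE 0.32), with limma adjusted p of 0.70 to 0.80. Without WT 1 and CD74-/- 3 they were -0.55, 0.61, 1.01 and 0.66, with limma adjusted p between 0.13 and 0.16. In each of the 4 genes the SD of the CD74-/- libraries (1135, 2730, 1582 and 2277 normalized counts) was larger than the difference of the group means.

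**Figure D3:**
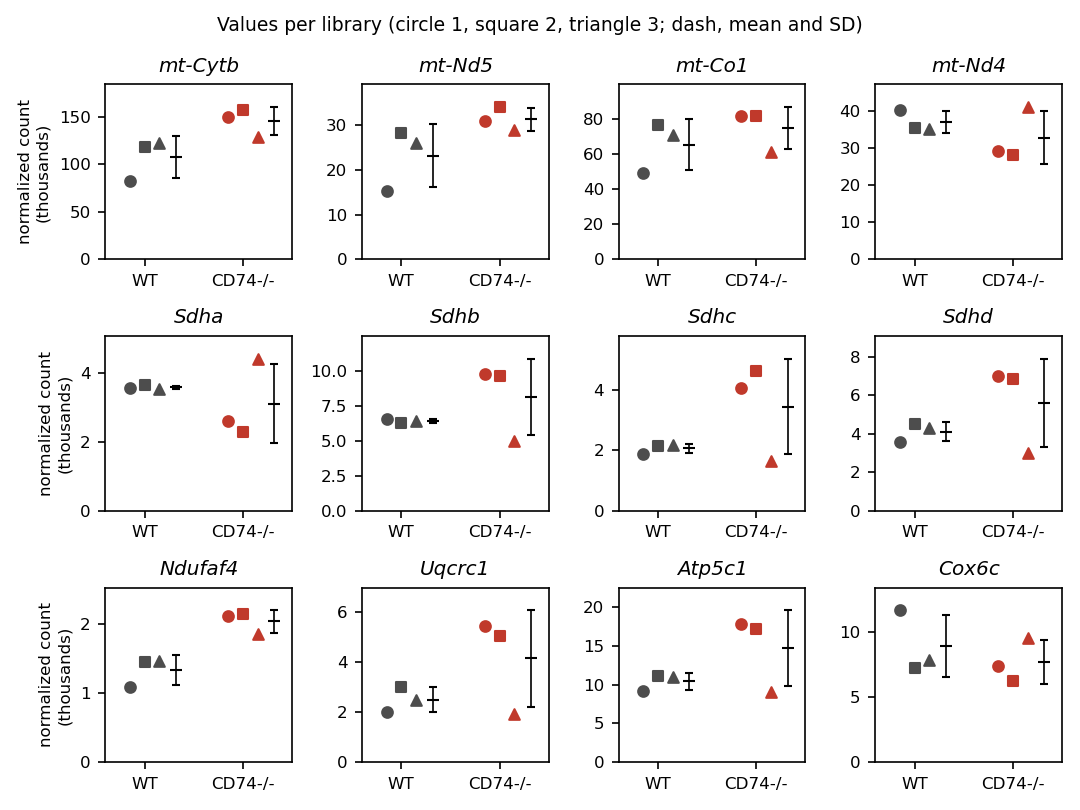
Normalized counts divided by 1000 (vertical axes, from 0) of 12 genes in each WT (grey) and CD74-/- (red) library, with circles, squares and triangles for replicates 1, 2 and 3 and a dash with a bar for the mean and SD. The groups do not overlap in mt-Cytb, mt-Nd5 and Ndufaf4, and the red triangle, CD74-/- 3, lies apart from the other CD74-/- libraries in all 4 Sdh genes.

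Complex III had 8 nuclear subunits with a median of 0.17 (0.19 without WT 1 and CD74-/- 3). Uqcrc1 and Uqcrc2 encode its large core proteins. Uqcrc1 stood at 2031, 3010 and 2474 in WT and 5463, 5039 and 1944 in CD74-/- libraries, with a log2 fold change of 0.61 (SE 0.37, limma adjusted p = 0.71). Uqcrc2 stood at 1406, 1940 and 1883 in WT and 3066, 3191 and 1715 in CD74-/- libraries (0.57, SE 0.28). CD74-/- 3 lay within the WT range of Uqcrc2 and below that of Uqcrc1. The lowest value of the complex was that of Uqcr11, a small subunit near the iron-sulfur protein, with -0.20 (6209, 4432 and 4430 in WT, 4315, 3905 and 4813 in CD74-/- libraries).

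Complex IV, the cytochrome c oxidase, had 15 nuclear subunits with a median of -0.08 (-0.01 without WT 1 and CD74-/- 3, and 0.08 without WT 1 alone), and 11 of them were lower in CD74-/- by sign. All have coding lengths under 600 bases, and 12 were highest in WT 1. Cox4i1, the common form of subunit 4, was with Ndufa4 the most abundant nuclear gene of the chain per kilobase (32048 and 32027), and stood at 31546, 22698 and 22475 in WT and 22131, 23292 and 21112 in CD74-/- libraries. The minimum was also passed by 4 forms known from particular tissues: Cox4i2 (lung and hypoxia), Cox6a2 and Cox7a1 (heart and muscle) and Cox6b2 (testis). Cox4i2 had 90.6 normalized counts per kilobase and Cox7a1 81.9, the least of all nuclear subunits, against 13446 for Cox7a2, the common form of subunit 7a. Cox6b2 reached 2618 per kilobase against 18920 for its common counterpart Cox6b1. Cox6a2 stood at 416 against 21705 for Cox6a1, and it overlaps Itgad, whose reads cannot be told apart without strand. None of the 4 separated the groups. Cox7a1 had the largest log2 fold change of all 98 genes (0.88, SE 0.90), on 41.7, 25.98 and 6.62 normalized counts in the WT libraries against 58.7, 36.5 and 23.6 in CD74-/- libraries. Cox4i2 had the lowest of the nuclear genes (-0.48, SE 0.57), with 83.5, 63.6 and 79.5 in WT and 59.7, 74.0 and 34.8 in CD74-/- libraries. Cox6a1, Cox6b1, Cox6b2, Cox7a2, Cox8a and Ndufa4 (counted here with complex IV) lay between -0.21 and 0.05. Cox7a2l, an assembly factor of supercomplexes kept apart from the subunits, was at 0.04.

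ATP synthase had 14 subunits above the minimum with a median of 0.09 (0.18 without WT 1 and CD74-/- 3). Atp5c1, the gamma subunit that turns in the catalytic head (chr2:10056016-10080510), had the highest value, 0.44 (SE 0.26, limma adjusted p = 0.71). It stood at 9179, 11137 and 10939 in WT and at 17814, 17128 and 9098 in CD74-/- libraries, where CD74-/- 3 was the lowest of all 6. Atp5b, the catalytic beta subunit, was likewise highest in CD74-/- 1 and 2 and lowest in CD74-/- 3 (7157, 7576 and 6274 in WT, 11894, 9366 and 5202 in CD74-/- libraries). Atp5s, a coupling factor kept apart from the subunits, had a log2 fold change of 0.38. Atp5k, the small subunit e, had the lowest value of the complex with -0.30 (SE 0.29), at 4196, 2158 and 2414 in WT and 2282, 1815 and 2810 in CD74-/- libraries. Without WT 1 alone its log2 fold change was -0.01.

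Across the 87 nuclear genes the library differences went with coding length. The log2 ratio of CD74-/- 3 to the mean of CD74-/- 1 and 2 had a Spearman correlation of -0.62 with the log2 coding length (Pearson -0.55), and that of WT 1 to the mean of WT 2 and 3 one of -0.56 (Pearson -0.53). These correlations are across genes, which share their libraries and are no replicates. In the 22 genes with coding lengths under 300 bases the median ratio was 1.17 for CD74-/- 3 and 1.43 for WT 1. In the 10 genes of 600 to 900 bases the medians were 0.64 and 1.01, and in the 5 genes of 900 to 1200 bases 0.45 and 0.78. The 10 genes of 1200 bases or more turned back to 0.63 and 1.07, so the ratios did not fall over the whole range of lengths. Outside the chain, genes averaging 100 normalized counts or more had medians for CD74-/- 3 of 1.02 under 300 bases (208 genes), 0.69 at 600 to 900 bases (1372 genes) and 1.19 at 1200 bases or more (5349 genes). The drop with length in CD74-/- 3 was thus also found in other genes up to 900 bases, and in genes of 1200 bases or more the ratio was above 1. Of the nuclear subunits, the 20 with at least 600 coding bases had a median log2 fold change of 0.20 and the 57 shorter ones of -0.07. Without WT 1 and CD74-/- 3 these medians were 0.40 and 0.07, so the sign of the shorter ones turned. Over all genes tested the same split gave -0.06 and 0.06, the other way round, but this did not hold in every band of length. Genes outside the chain averaging 100 or more had median log2 fold changes of 0.02 under 300 bases, 0.05 at 300 to 450 and 0.14 at 450 to 600. Their medians were 0.17 at 600 to 900 bases, 0.09 at 900 to 1200 and -0.09 at 1200 or more. When a smooth trend over coding length was taken out of each library, the medians of the subunits were 0.05 and -0.13, and limma called 0 of the 94 genes with a coding length (against 0.138% of all genes), and 2, mt-Nd5 and Ndufaf4, were higher at an unadjusted p under 0.05 (against 3.65%). The cause of the length pattern was not tested.

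**Figure D4:**
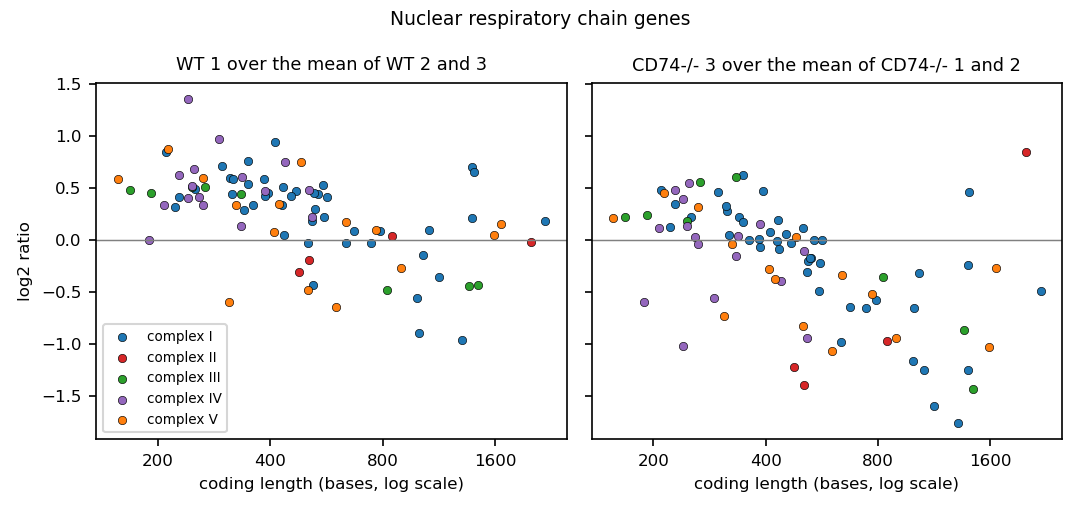
Log2 ratio (vertical axis) of WT 1 to the mean of WT 2 and 3 (left) and of CD74-/- 3 to the mean of CD74-/- 1 and 2 (right) for the 87 nuclear genes, against coding length in bases (log scale), coloured by complex. The points tend to fall with length in both panels, though not in the longest genes, with Spearman correlations of -0.56 (left) and -0.62 (right).

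Promoters were searched because nuclear genes of the chain are known targets of NRF1, of ETS factors such as GABPA and of YY1. RefSeq windows (GRCm38.p6) were matched for 71 of the 87 nuclear genes. The 250 bases before the RefSeq start were read on either strand for the NRF1 palindrome, for CCGGAAGTG (ETS) and for a YY1 motif. A RefSeq start can lie inside the GENCODE gene model, as in Atp5d. The NRF1 palindrome was present in 4 of the 71 (5.63%) and in 210 of 27025 promoters of all genes (0.777%). CCGGAAGTG was present in 1 of 71 (1.41%, against 1.45% of all), and the YY1 motif in 0 (against 0.215%). The promoters with the NRF1 palindrome were those of Ndufaf4, Atp5k, Cox6a1 and Ndufa11. The promoters of Ndufaf4, the gene with the lowest p, and of Atp5k, the lowest of complex V, are shown because they share the motif and their genes had fold changes of opposite sign (0.62 and -0.30). Capitals spell the NRF1 palindrome as searched, and each run ends at the base before the RefSeq start. The end of the Atp5k run lies inside the GENCODE gene model, which begins at 108434448 on the minus strand. The run of Ndufaf4 is chr4:24897833-24898082 (plus strand) and that of Atp5k chr5:108434400-108434649 (minus strand).
Ndufaf4: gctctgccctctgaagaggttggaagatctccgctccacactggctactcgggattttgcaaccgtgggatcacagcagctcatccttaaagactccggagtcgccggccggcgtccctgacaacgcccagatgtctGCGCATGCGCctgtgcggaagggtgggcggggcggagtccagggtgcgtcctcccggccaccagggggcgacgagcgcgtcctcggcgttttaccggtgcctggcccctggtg
Atp5k: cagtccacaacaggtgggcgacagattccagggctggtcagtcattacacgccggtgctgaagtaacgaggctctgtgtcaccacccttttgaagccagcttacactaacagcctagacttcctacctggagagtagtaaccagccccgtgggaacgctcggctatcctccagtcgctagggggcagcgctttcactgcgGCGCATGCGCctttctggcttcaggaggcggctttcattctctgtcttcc
A match is a description of the letters and not a bound site.

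Genes outside the chain that build, feed or express it also gave 0 calls by limma (lowest adjusted p = 0.50), edgeR and DESeq2, over 13 lists, against 0.0873%, 0.083% and 0.756% of all genes. At an unadjusted limma p under 0.05, 2 of 17 genes of mitochondrial DNA upkeep and transcription, 3 of 20 of mitochondrial RNA processing, 3 of 18 of the tricarboxylic acid cycle, 2 of 13 of coenzyme Q synthesis and 4 of 78 of the mitochondrial ribosome were higher in CD74-/-, against 3.14% of all genes. Of the 5 lists of assembly factors beside Ndufaf1 to Ndufaf8, those of complexes I, III, IV and V had 1 gene each, and that of complex II had 0. The biogenesis regulators had 1 of 13, and the list of carriers, porins and import and that of electron carriers and subunits with other names had 0. In the RNA processing list 1 of 20 genes was lower at that threshold, against 4.6% of all genes, and the other lists held none. It was Elac2, the enzyme that cuts the 3′ ends of tRNAs, at 329, 321 and 293 in WT and 180, 188 and 163 in CD74-/- libraries (log2 fold change -0.83, SE 0.34, limma adjusted p = 0.61). Trmt10c, a subunit of the enzyme that cuts their 5′ ends, was on the other side with 1006, 1794 and 1324 in WT and 2133, 2555 and 1880 in CD74-/- libraries (0.70, SE 0.27). Neither overlapped between the groups. Of the 20 genes of the RNA processing list, 5 were higher without overlap and 2 lower, against 5.35% and 7.47% of all genes. Lyrm7, an assembly factor of complex III, had the lowest p of the lists, at 208, 363 and 177 in WT and 852, 629 and 434 in CD74-/- libraries (1.37, SE 0.39). Medians were 0.21 for the mitochondrial ribosome, 0.29 for the tricarboxylic acid cycle and 0.24 for mitochondrial DNA upkeep, and 0.37, 0.55 and 0.41 without WT 1 and CD74-/- 3. With the length trend removed, the median of the mitochondrial ribosome was 0.08, that of the tricarboxylic acid cycle 0.23 and that of mitochondrial DNA upkeep 0.31. The biogenesis regulators lay on the other side, with a median of -0.09, and of -0.36 without both libraries. Of the other 9 lists, 8 had a positive median (0.08 to 0.49), and the electron carriers and subunits with other names had -0.05. Tfam, which packs mitochondrial DNA and is a factor for its transcription, stood at 2867, 2473 and 2470 in WT and 3508, 3074 and 2992 in CD74-/- libraries (0.29, SE 0.20, limma adjusted p = 0.73), and Nrf1 at 335, 390 and 559 against 512, 554 and 294 (0.06, SE 0.36).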

How the data were processed

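Reads of SMART-Seq v4 libraries, which keep no strand, were trimmed with cutadapt, aligned with STAR 2.4.2a to GRCm38 and counted with htseq-count by the authors. The deposited signal is a normalized count, reads per gene over the DESeq2 size factor. All values (100%) were whole multiples of 1 read within 0.006, so reads were recovered for the count tests. limma 3.58.1 (R 4.3.3, trended variance) was fitted to log2(normalized count + 1) of 14892 genes with a mean of 10 or more, and edgeR 4.0.16, DESeq2 1.42.0 and limma-voom to the reads. These fits were tested on simulated counts with larger changes than those of the chain and no library that stood apart. That test does not show what changes they would miss here. Single genes had a two-sided exact permutation test. P-values measure the spread between these libraries only.

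Named were the mitochondrial protein-coding genes, genes called or without overlap at an unadjusted p under 0.05, the extremes of each complex, Sdha to Sdhd, tissue isoforms with their counterparts, and up to 2 uncalled genes per list. All other names and the 600-base limit were picked after seeing values. Members and lists were chosen with earlier results of these data known. Gene models came from GENCODE vM21 and promoters from RefSeq. Fold change and p-value columns of the authors, and a sheet of their thresholds, were not used. Alternatives were pseudocounts of 0.5 and 5, no filter or a mean of 50, a replicate block, other scalings and tools, and each library left out. Leaving out both WT 1 and CD74-/- 3, and removing a coding length trend, were added after seeing the data. The choice of those libraries rested on values of the chain genes, so counts without them cannot be weighed against all genes.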

Additional observations from a re-analysis of the deposited data

How the results depend on the processing

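Calls stayed at 0 of the 98 genes under all 18 alternatives, with a lowest adjusted p of 0.064 without CD74-/- replicate 3, where Sdhc came closest. Under the replicate block, 0 genes of the chain and 27 of all genes were called, against 13 without it. Deviations of same-numbered libraries correlated at 0.12, 0.072 and 0.019 across genes, and those of differently numbered ones at -0.11 to 0.053. WT 1 and WT 2 correlated best with the CD74-/- library of their number, and WT 3 with CD74-/- 2. Whether same-numbered libraries share a batch was not tested. Genes without overlap numbered 4 to 29 higher and 0 to 12 lower with 1 library left out (all genes 8.49% to 19.2% and 10.9% to 18.7%), the most without CD74-/- replicate 3, 48 and 13 without both WT 1 and CD74-/- 3 (24.6% and 25.2% of all genes), and 2 and 5 after scaling to nuclear counts (4.12% and 8.96%). The median over all 98 genes moved to 0.14 without both libraries, and that of the mitochondrial protein-coding genes from 0.21 to 0.03, and ran from -0.015 to 0.32 with 1 library left out. With 1 library left out the nuclear medians ran from -0.12 to 0.09 in complex I, 0.13 to 0.68 in II, 0.04 to 0.23 in III, -0.16 to 0.08 in IV and 0.01 to 0.18 in V. The sign turned in I and IV without WT replicate 1. Of 28 named genes, 9 changed sign under some alternative. Without both libraries mt-Nd1 was 0.026, mt-Nd6 -0.14, Cox4i1 0.0075 and Cox6b1 0.074, and after scaling to nuclear counts Ndufa4 was -0.015. With 1 library left out the values ran from -0.059 to 0.017 for mt-Nd1, -0.31 to 0.0058 for mt-Nd2, -0.015 to 0.33 for mt-Nd6, -0.14 to 0.085 for Cox6b1, -0.33 to 0.082 for Cox7a2, -0.18 to 0.036 for Cox8a, -0.41 to 0.037 for Ndufa1 and -0.036 to 0.23 for Ndufa4. Genes of the lists called numbered 0 to 1 with 1 library left out, Idh2 being called without CD74-/- replicate 3. The cause of these shifts was not tested. With 3 libraries of 1000 cells a group the 95% interval of the log2 fold change ran from 0.12 to 1.12 for Ndufaf4 and from -0.01 to 0.90 for mt-Cytb.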
